A study of Mus musculus with 2 samples.

Results

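The enzymes that build and break down heme were followed in neutrophils of the bone marrow of mice labelled Jdp2 KO and of mice labelled Jdp2 WT. All probe sets annotated to 9 genes were taken by gene symbol, in the order of the pathway: Alas1, Alas2, Alad, Uros, Urod, Cpox, Ppox, Fech and Hmox1. They held 20 of the 34945 probe sets that carry a single gene symbol, and 9 of 18193 genes. Each label was represented by 1 Affymetrix array, so there are no replicates and no difference has a p-value, and having only 2 arrays limits how precisely any value is known. Both groups are given a mixed C57BL/6 and 129/J background, and both were sorted for CD11b and Ly6G with low Ly6C before RNA extraction with Trizol. Jdp2 encodes a leucine-zipper repressor of the AP-1 family. The sources used here give neither the make of the knockout allele, nor the age of the mice, nor how many mice each array stands for.

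Heme is an iron atom held in a porphyrin ring. Its synthesis begins in the mitochondrion, where glycine and succinyl-CoA are joined to 5-aminolevulinate, passes through the cytosol while the ring is assembled and trimmed, and ends in the mitochondrion, where iron is inserted. The first step is rate-limiting and has a general form, Alas1, and an erythroid form, Alas2. Neutrophils need heme for myeloperoxidase and for the flavocytochrome of the NADPH oxidase, and heme oxygenase 1, encoded by Hmox1, breaks it down to biliverdin, iron and carbon monoxide.

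Values are log2 signals made with RMA, a method that summarises the probes of a probe set, and every difference is the array labelled KO minus the array labelled WT, on the log2 scale. Where a gene had several probe sets, the one with the highest average signal stood for it. The level filter kept a gene or probe set whose larger value reached the median of its array, which was 5.67 for the KO label and 5.65 for the WT label. Each probe set binds with its own strength, so signals of different probe sets serve here only to choose a gene's probe set and to apply the level filter, and rank no gene above another. A difference of at least 1, which is 2-fold, was counted as past the size rule.

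The 250 bases before the RefSeq transcription start (GRCm38.p6) are shown for the first enzyme in both its forms, for Alad, whose probe set had the largest difference, and for starts of Uros and Cpox that hold a GATA letter run. RefSeq windows were found for 7 of the 9 genes, 10 windows in all. Fech and Hmox1 had none and were not searched. Capitals mark GATAA, the core bound by GATA factors (here on the opposite strand, as TTATC), and CACGTG, an E-box. The windows are chr9:106247955-106248204, minus strand, for Alas1; chrX:150547167-150547416, plus strand, for Alas2; chr4:62519910-62520159, minus strand, for Alad; chr7:133702501-133702750, minus strand, for Uros; and chr16:58669958-58670207, plus strand, for Cpox.
Alas1: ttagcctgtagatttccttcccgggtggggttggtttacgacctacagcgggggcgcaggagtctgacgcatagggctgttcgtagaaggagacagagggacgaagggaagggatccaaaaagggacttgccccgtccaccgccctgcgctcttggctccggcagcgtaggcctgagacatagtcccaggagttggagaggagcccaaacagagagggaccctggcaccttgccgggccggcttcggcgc
Alas2: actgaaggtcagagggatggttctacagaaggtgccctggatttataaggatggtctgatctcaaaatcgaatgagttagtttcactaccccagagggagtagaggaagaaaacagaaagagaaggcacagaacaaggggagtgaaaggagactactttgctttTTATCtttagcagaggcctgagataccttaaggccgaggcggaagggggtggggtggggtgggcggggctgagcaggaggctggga
Alad: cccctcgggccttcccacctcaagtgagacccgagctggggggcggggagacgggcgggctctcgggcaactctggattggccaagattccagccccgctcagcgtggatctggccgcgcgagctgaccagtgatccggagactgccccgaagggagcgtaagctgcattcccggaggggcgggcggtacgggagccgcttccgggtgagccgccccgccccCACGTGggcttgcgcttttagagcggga
Uros: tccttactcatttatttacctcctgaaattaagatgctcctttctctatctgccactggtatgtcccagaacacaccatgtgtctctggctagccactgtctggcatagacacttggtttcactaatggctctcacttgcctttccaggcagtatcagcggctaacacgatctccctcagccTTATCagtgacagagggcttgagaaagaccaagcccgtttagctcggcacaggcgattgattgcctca
Cpox: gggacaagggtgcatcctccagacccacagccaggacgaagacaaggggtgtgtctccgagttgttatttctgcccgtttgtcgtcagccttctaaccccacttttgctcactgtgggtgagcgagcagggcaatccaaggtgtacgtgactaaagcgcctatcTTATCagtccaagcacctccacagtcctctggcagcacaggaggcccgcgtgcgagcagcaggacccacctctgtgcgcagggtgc

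The letters GATAA, searched on both strands, stood in the windows of Alas2 and Cpox, with the first base 86 bases before the start in each, and in the window of the second Uros start, 68 bases before it. They were found in 3 of the 10 windows of heme enzymes and in 22.6% of all 32851 windows of this length. CACGTG, which reads the same on both strands, was found in 4 of the 10 windows, against 6.02% of all windows. It lay 28 bases before the Alad start shown and 105 bases before the other Alad start, and the Alad windows overlap. The remaining windows with it were those of Urod, 49 bases before the start, and of the other Uros start, 250 bases before it, at the window's edge. Windows of the same gene are not independent, so the share of windows is not a share of genes. The AP-1 letters TGACTCA and the CRE letters TGACGTCA, the kinds of site that AP-1 and ATF proteins bind, were in none of the 10 windows, against 4.46% and 1.55% of all windows. None of these motifs lies inside another. A match is a description of letters, and binding was not measured.

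The arrays were alike in overall signal, with a correlation of 0.983 across probe sets, a description, since probe sets are no replicates. The 3′ to 5′ differences of the control probe sets were 0.39 and 0.38 for Actb and 0.64 and 0.63 for Gapdh, in the order KO and WT label. Jdp2 was no lower on the array labelled KO: its stronger probe set read 12.38 there and 11.997 on the other (1450350_a_at). The sources used here do not place that probe set inside or outside the deleted part, so the labels are unchecked by the targeted gene. Of 15 neutrophil markers, 12 had a named probe set, and all 12 lay above the median of both arrays.

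Alas1, the general form of the first enzyme, was measured well above the array median by both of its probe sets. Probe set 1424126_at read 9.71 on the KO-labelled array and 9.94 on the WT-labelled array, a difference of -0.23. Probe set 1455282_x_at read 9.51 and 9.66, a difference of -0.14. Both were slightly lower on the array labelled KO, by 1.17-fold and 1.10-fold. Alas2, the erythroid form, read 3.998 and 3.86 with its only probe set (1451675_a_at), a difference of 0.13, and lay below the median of both arrays. RMA gives no detection call, so such a value may hold background alone.

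Alad, which joins a pair of 5-aminolevulinate molecules into the first ring of the pathway, showed the largest difference of the 9 genes. Its stronger probe set, 1424877_a_at, read 5.66 on the array labelled KO and 6.66 on the array labelled WT. The difference was -0.997, just short of the size rule, and 5.43% of all genes that passed the level filter differed by at least as much in either direction. It came to -1.01 with the arrays centred on their medians and to -1.003 after quantile normalisation, both past the rule, but to -0.99 after removal of a loess trend. The mean of both Alad probe sets was -0.41, and leaving out probe sets with the maker's marks left the weaker one, at 0.19. The KO value lay just under the array median, and with it raised to that median the fold was 1.99. The other probe set, 1457306_at, was under both array medians at 3.95 and 3.77, and differed the other way. The lower Alad signal therefore rests on 1 probe set. In RNA from a mixture of cells, fewer cells of a type and less RNA per cell cannot be told apart.

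Uros closes the porphyrin ring and Urod removes carboxyl groups from its side chains. Uros read 6.84 and 7.05 (1423482_at), a difference of -0.21, while its second probe set, 1440535_at, read 4.78 and 4.65, below both medians, a difference of 0.14. Urod was nearly equal on the arrays. Its stronger probe set, 1443849_x_at, read 11.01 and 10.97, a difference of 0.04, and 1417206_at read 10.00 and 10.01, a difference of -0.01. Of all genes that passed, 91.5% differed by at least as much as Urod.

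Cpox and Ppox carry out the oxidations that turn the trimmed ring into protoporphyrin. All 3 probe sets of Cpox lay below the median of both arrays, so the gene did not pass the level filter. They read 4.89 and 4.59 (1422493_at), 4.49 and 4.31 (1422492_at) and 3.57 and 2.80 (1440747_at), with differences of 0.30, 0.18 and 0.78. The last is the highest difference of any of the 20 probe sets, and both of its signals lie far below the array medians. Ppox was strong on both arrays but its probe sets disagreed. Probe set 1416618_at read 10.29 and 10.60, a difference of -0.30, whereas 1448065_at read 9.66 and 9.44, a difference of 0.22. The third, 1441862_at, read 2.88 and 2.56, below both medians.

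Fech, which inserts iron into protoporphyrin, had 4 probe sets. The strongest, 1418699_s_at, read 8.11 on the array labelled KO and 8.10 on the other, a difference of 0.02. Probe set 1418698_a_at read 7.38 and 6.96, a difference of 0.42, and 1449181_at read 5.77 and 6.10, a difference of -0.32. The fourth, 1427696_at, read 4.64 and 4.46, below both medians. The SD of the difference over the 3 that passed was 0.37, larger than the size of the difference of the strongest, and the same SD over the 2 passing probe sets of Ppox was 0.37. This is a spread between probe sets on the same RNA and says nothing of the spread between mice, and the cause of the disagreement was not tested.

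Hmox1, the inducible heme oxygenase, was strong on both arrays with its only probe set (1448239_at), at 11.46 on the array labelled KO and 11.27 on the array labelled WT. The difference of 0.19, or 1.14-fold, is smaller than 0.22, the median SD of the difference between passing probe sets of a gene, over the 4867 genes with more than 1. Of all genes that passed, 58.4% differed by at least as much.

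**Figure D1:**
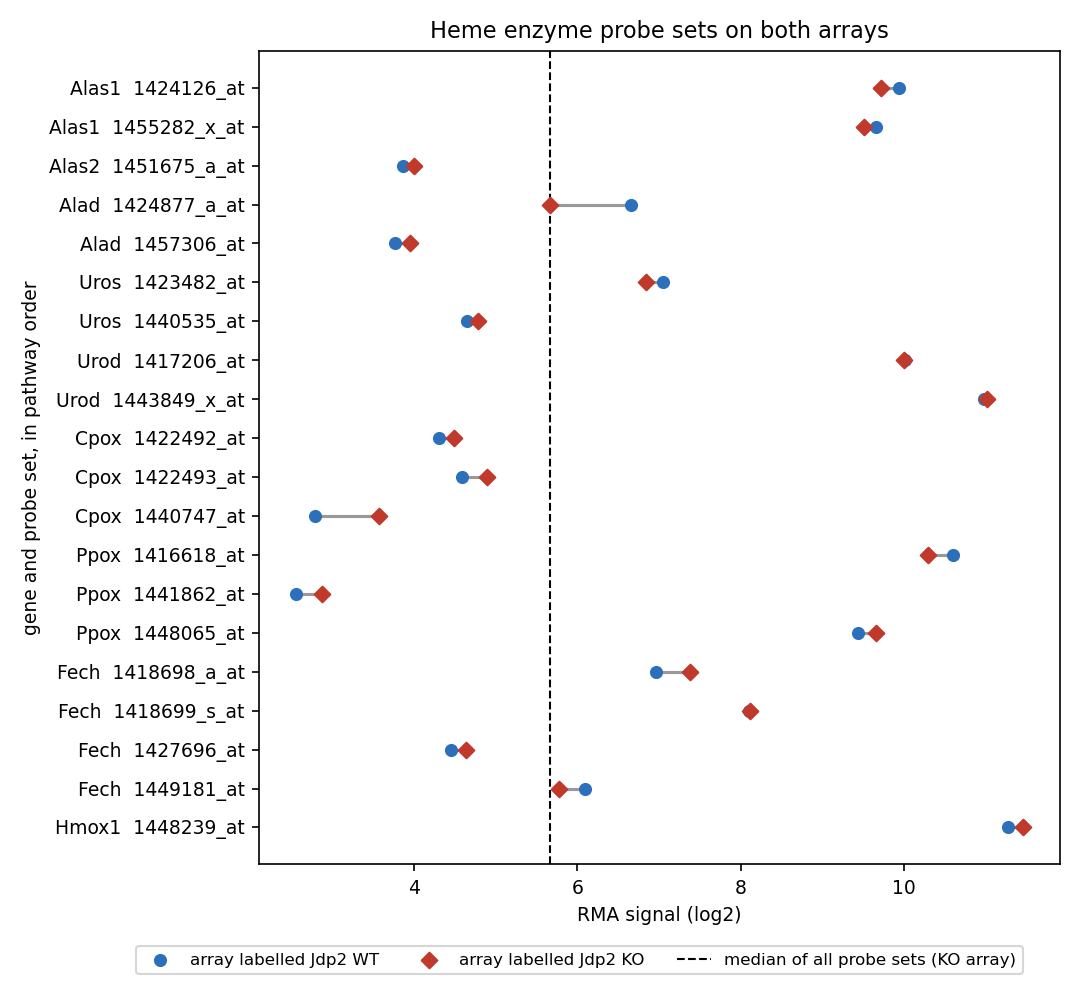
RMA signal (log2) of each of the 20 heme enzyme probe sets, in pathway order, on the array labelled Jdp2 KO (diamonds) and the array labelled Jdp2 WT (circles), with a dashed line at the median of the KO-labelled array, 5.67. Alad 1424877_a_at has the longest gap, 5.66 against 6.66, and Alas2 and all 3 Cpox probe sets lie left of the line.

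None of the 7 heme enzyme genes that passed the level filter was past the size rule in either direction. Over all 11168 genes that passed, 3.06% were higher by 2-fold or more under the KO label and 2.33% lower by as much. Beside these shares, a count of 0 among 7 genes is no result about the heme enzymes. Of the 7 genes, 3 had a difference above 0 (Hmox1, Urod and Fech) and 4 below 0 (Alad, Ppox, Alas1 and Uros). Their median was -0.21, beside -0.04 for all genes that passed, and it was -0.10 without Alad. All 9 genes together had a median of 0.02, because Alas2 and Cpox, which did not pass, had differences of 0.13 and 0.30. The list's median thus depended on which genes were counted.

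All 8 heme enzyme probe sets that lay below the medians had a difference above 0, from 0.13 to 0.78 with a median of 0.18. Of the 12 that passed, 7 were below 0 and 5 above, with a median of -0.08. Over all named probe sets, 49.2% of those that did not pass and 43.6% of those that passed were above 0, with medians of -0.004 and -0.05. Of the 7 heme enzyme genes with more than 1 probe set, 5 had probe sets on both sides of 0 (Alad, Uros, Urod, Ppox and Fech). Of all genes with more than 1 probe set, 56.1% did.

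**Figure D2:**
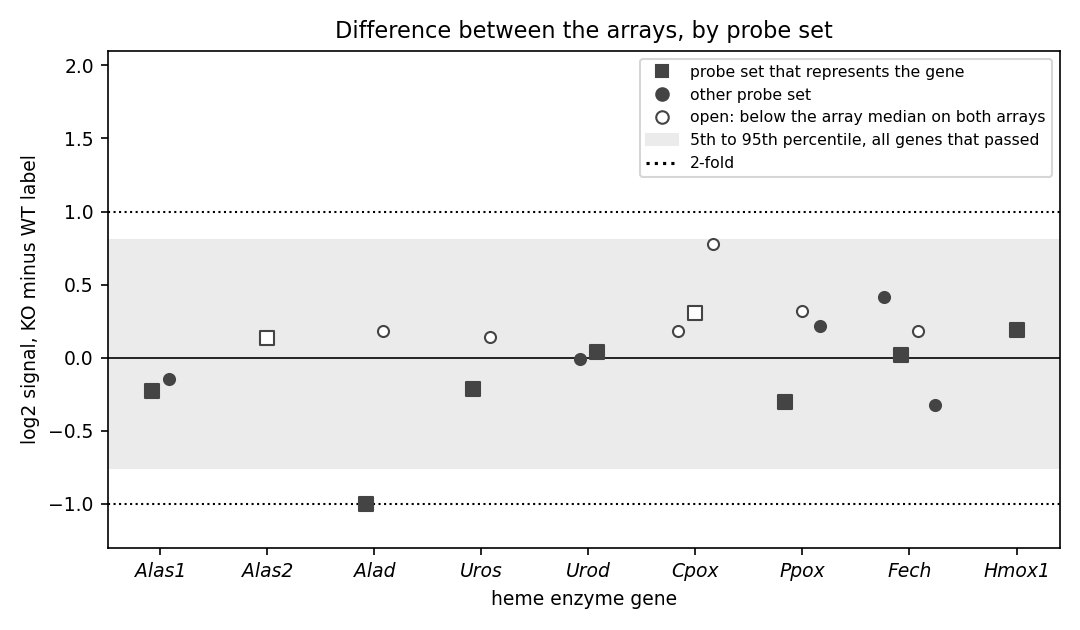
Difference in log2 signal (KO minus WT label) for every probe set of the 9 genes. Squares represent the gene, open symbols lie below the median of both arrays, the grey band spans the 5th to 95th percentile of all genes that passed (-0.75 to 0.81), and dotted lines mark 2-fold. Alad at -0.997 is the only symbol outside the band, and all 8 open symbols lie above 0.

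Genes that carry heme, porphyrins or mitochondrial iron, or that control the first enzyme, held 2 that were at least 2-fold lower in the array labelled KO, Fam210b and Abcb6, and 0 at least 2-fold higher. The shares over all genes that passed were 2.33% lower and 3.06% higher. Of 20 listed genes, 18 passed, 13 of them with a difference below 0 and with a median of -0.16, while 55.1% of all genes that passed were below 0. The 2 became 1 when both values had to reach the median and 0 with the filter at the 75th percentile. Fam210b, a mitochondrial membrane protein that aids iron import for heme synthesis, read 5.35 against 6.81, a difference of -1.46. All 3 of its passing probe sets were lower, from -1.46 to -0.79, and the fold was 2.21 once the KO value was raised to the array median. Abcb6, a porphyrin transporter, read 6.14 against 7.26 with 1 passing probe set, a difference of -1.12. Clpx, a mitochondrial unfoldase that acts on 5-aminolevulinate synthase, read 6.03 against 6.78, a difference of -0.76. Slc25a38, the mitochondrial glycine carrier of this pathway, read 6.80 against 7.43, a difference of -0.63. The iron importer Slc25a37 (mitoferrin 1) was the other way by a small amount, 11.82 against 11.66, a difference of 0.17. Abcb10, which works with mitoferrin 1, differed by -0.32, and its passing probe sets ran from -1.03 to -0.32.

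Genes of heme degradation beyond Hmox1 and their regulators held none past the size rule. The shares over all genes that passed were 3.06% higher and 2.33% lower. Of 19 listed genes 17 passed, 7 above 0 and 10 below, against 55.1% of all genes that passed below 0, with a median of -0.08. Hmox2, the constitutive heme oxygenase, read 10.45 against 10.68, a difference of -0.23. The biliverdin reductases Blvra and Blvrb read 8.22 against 7.79 and 6.78 against 6.68, differences of 0.43 and 0.10. Bach1, the heme-sensing repressor of Hmox1, read 12.67 against 12.59, and its 2 passing probe sets ran from -0.11 to 0.08. Nfe2l2, the activator that competes with Bach1, read 11.49 against 11.79, a difference of -0.30. The largest differences were those of the small Maf gene Maff (0.70, with the WT value below the median) and of the Nfe2l2 targets Gclm (-0.65) and Nqo1 (-0.55). Another passing probe set of Gclm was at -0.28.

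Of 24 genes of iron uptake, storage and export, 16 passed, with a median of -0.10 and 11 below 0, against 55.1% of all genes that passed. Over all genes that passed, 3.06% were at least 2-fold higher and 2.33% lower by as much. Steap4, a metalloreductase, was the one past the size rule, at 9.24 against 8.13, a difference of 1.10, and 0.74 as the mean of its probe sets, short of the rule. The metal importer Slc39a8 read 5.25 against 6.23 (-0.97), and Steap2 read 5.49 against 6.32 (-0.84). Their KO values lay below the array median, and with those raised to it the folds were 1.48 and 1.58. Averaged over all probe sets, they came to -0.07 and 0.06. Tfrc, the transferrin receptor, read 9.54 against 9.81, with passing probe sets from -0.27 to 0.11. Fth1, the ferritin heavy chain, read 13.99 against 13.90. Ftl1, the ferritin light chain, had no named probe set here.

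Of 15 passing genes of iron-sulphur cluster assembly, 10 were below 0, against 55.1% of all genes that passed, and the median was -0.03. Nfs1, the cysteine desulphurase, was past the size rule at 7.06 against 5.76 (1.29), but its 3 passing probe sets ran from -0.61 to 1.29. Of all genes that passed, 3.06% were at least 2-fold higher. Hspa9, a mitochondrial chaperone, differed by 0.63 and Ciao1, of the cytosolic assembly machinery, by -0.64. Of 9 passing genes listed for the supply of glycine and succinyl-CoA, 6 were below 0, against the same 55.1%, and the median was -0.11. That median is the value of Slc25a39, a mitochondrial carrier that brings in neither of them. The serine hydroxymethyltransferase genes Shmt2 and Shmt1 differed by 1.14 and 0.71, although the mean over all Shmt2 probe sets was 0.08, and Ogdh, of the citric acid cycle, differed by -0.56. Cox10, Cox15 and Hccs, which modify heme for cytochromes, differed by -0.29, -0.08 and 0.13.

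Among 16 passing genes listed for heme-binding proteins, 11 were below 0, against 55.1% of all genes that passed, and the median was -0.19. The list also held Uqcrh (0.04) and Cyb5r3 (0.09), whose proteins work beside heme proteins but bind no heme. Mpo, encoding myeloperoxidase, was the one past the size rule, at 11.02 against 5.93, a 34.0-fold difference. Of all genes that passed, 3.06% were at least 2-fold higher. Catalase, encoded by Cat, read 9.73 against 9.06 (0.68), and Cyb5a, encoding cytochrome b5, read 9.85 against 10.41 (-0.57). The flavocytochrome genes Cybb and Cyba, named here after their values were seen, read 13.45 against 13.67 and 13.12 against 13.30. The heme enzyme genes that passed thus lay between -0.997 and 0.19 on the array where Mpo was higher by 5.09.

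**Figure D3:**
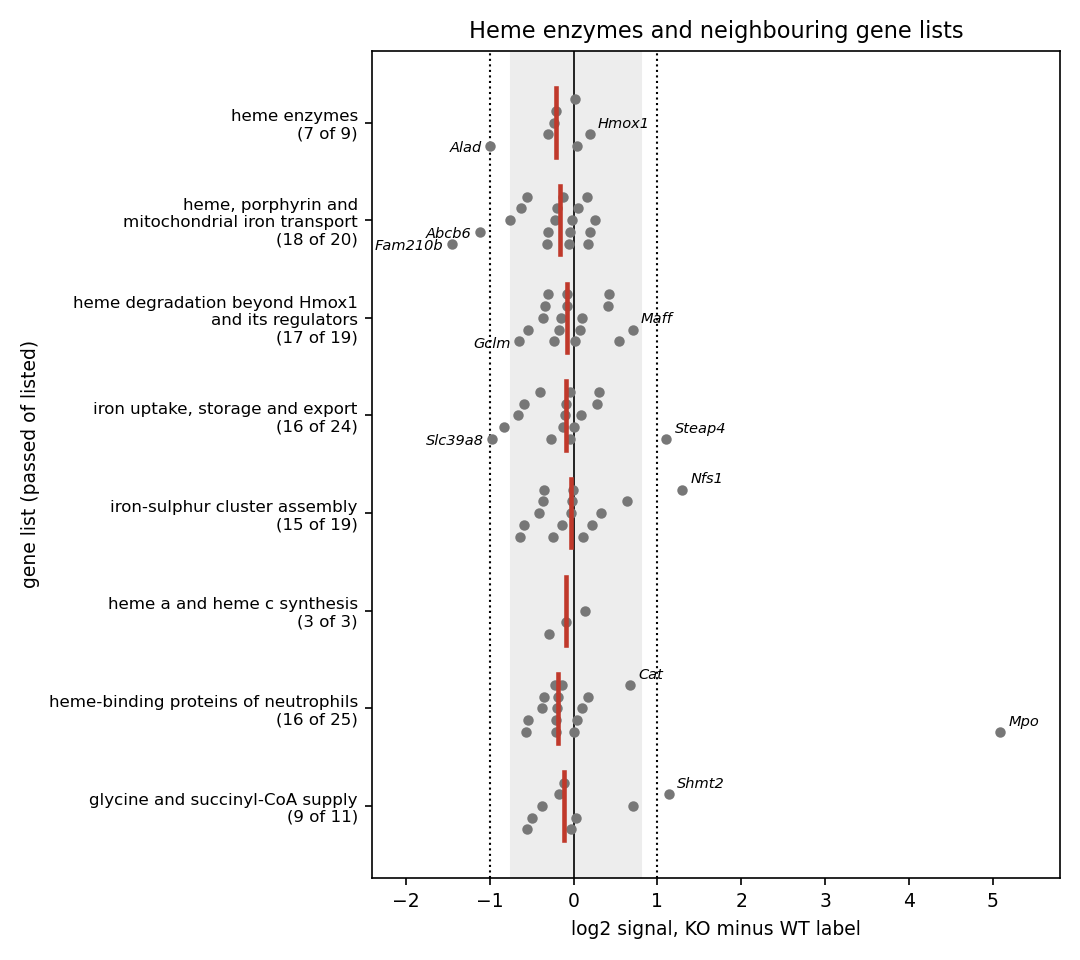
Difference in log2 signal (KO minus WT label) of each passing gene of the heme enzymes and the 7 neighbouring lists, with the list's median as a red bar, the 5th to 95th percentile of all passing genes in grey and 2-fold as dotted lines. All 8 medians lie between -0.21 and -0.03, and Mpo, at 5.09, stands far to the right.

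Markers of other cells were read beside these genes. Of 24 erythroid markers 18 had a named probe set, and 10 lay below the median of both arrays, among them Klf1 (4.87 against 5.65) and Gata1 (5.27 against 4.14), as Alas2 did. The globin gene Hba-a2 was strong all the same, at 13.20 and 13.21; its near-identical copy makes the assignment uncertain. Of the 8 erythroid markers that passed, 7 were below 0, with a median of -0.17. Over all genes that passed, 55.1% were below 0 and the median was -0.04. Some of the 7 differed little, such as Hba-a2 at -0.02 and Tfr2 at -0.12. The largest differences were those of Car2, carbonic anhydrase 2, at -1.29, Hbb-b2 at -0.48 and Ank1 at -0.21. The KO value of Ank1 lay below the array median, and with it raised to that median the fold was 1.11. Its probe sets ran from -0.21 to 0.02. The signal summed over the list, read only between the arrays, was 13.35 on the array labelled KO and 13.40 on the other, on the log2 scale. Hba-a2 alone read 13.20 and 13.21, so this sum mostly follows that probe set and says little of the other markers. Whether erythroid RNA has a part in the lower Alad, Abcb6 and Fam210b signals was not tested.

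Monocyte and macrophage markers, cells that use Hmox1 to clear heme, were higher in the array labelled KO. Of 17 that passed, 16 were above 0 and 10 at least 2-fold higher, against 44.8% and 3.06% of all genes that passed. The median over the 17 was 1.11, with F13a1 (2.43), Ms4a6c (1.69) and Mrc1 (1.64) at the top. Among the 10, F13a1, Ms4a6c, C1qa and C1qc had WT values below the array median. With those raised to it, the folds were 3.25, 1.76, 1.71 and 1.78, so Ms4a6c, C1qa and C1qc fell short of the size rule. The other Ms4a6c probe set was at 0.15. Ccr2, also among the 10, had 1 passing probe set of 4, and the mean difference over all 4 was 0.42. The signal summed over the probe sets of this list was 13.21 on the array labelled KO and 12.45 on the other, a sum that can be read only between the arrays. The part of these cells in the Hmox1 difference was not tested. Of 8 passing primary granule genes, 6 were at least 2-fold higher, against the same 3.06% of all genes, with a median of 1.95. Among the 6, Prtn3 and Ctsg had WT values below the array median, and with those raised to it the folds were 3.06 and 6.64. Passing probe sets of Ctsc ran from -0.61 to 1.05. Megakaryocyte and platelet markers had a median of 0.76 over 7 genes, B cell markers 0.10 over 5, T and NK cell markers 0.30 over 5, and neutrophil markers -0.06 over 12.

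**Figure D4:**
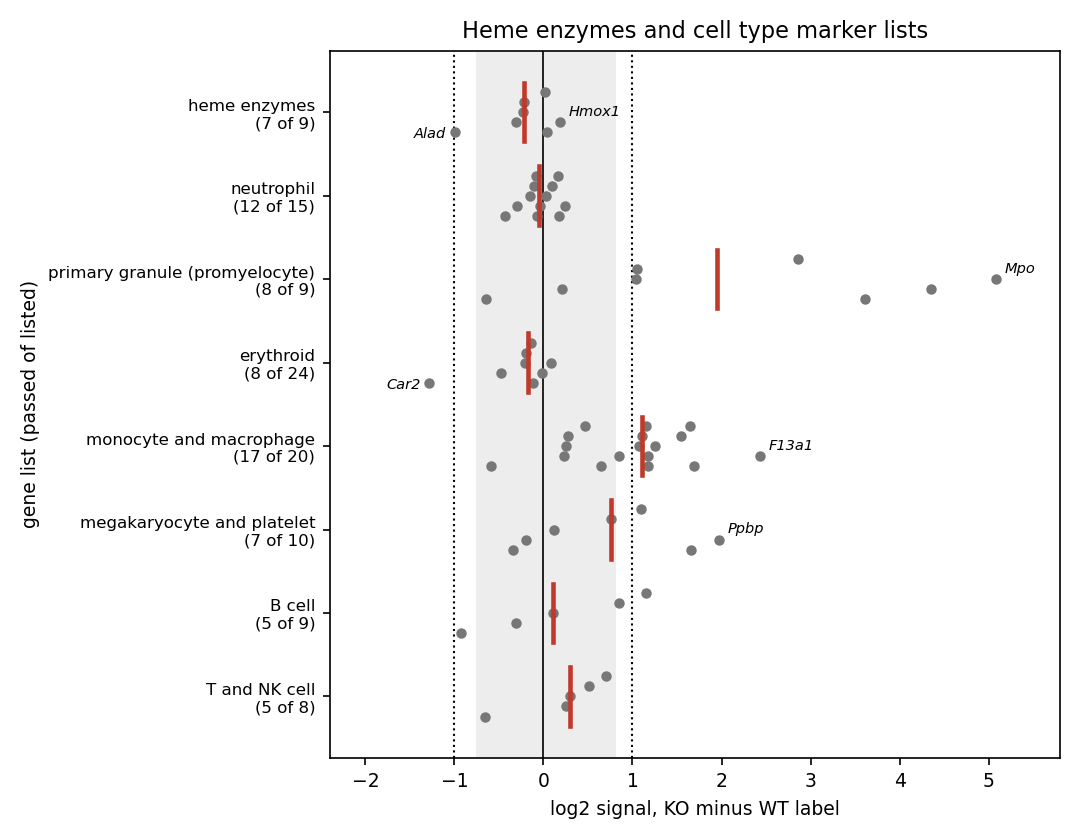
Difference in log2 signal (KO minus WT label) of each passing gene of the heme enzymes and the 7 marker lists, drawn as in the plot of pathway lists. Monocyte and macrophage markers centre on 1.11 and primary granule genes on 1.95, while heme enzymes, neutrophil and erythroid markers centre on -0.21, -0.06 and -0.17.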

How the data were processed

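RNA of sorted bone marrow neutrophils was measured on 1 array per label. The deposited log2 values are probe set summaries from RMA, per the notes of the submitters on processing. The sources used here give no version and no background or normalisation step. The deposited table held 45101 probe sets, of which 64 were controls. Of the other 45037, 34945 had 1 gene symbol in the platform annotation, 932 had several and 9160 were not listed. Symbols were updated by Entrez identifier (34741 matched, 204 kept). No probe set with several symbols held a heme enzyme.

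Genes were represented, filtered and counted as the results describe, with Python 3.11.15, pandas 2.3.3 and statsmodels 0.14.6. The procedure was tested on simulated data. Members and gene lists were chosen with earlier results of these data known. The rule for named genes took every heme enzyme probe set, Jdp2, the 3 largest absolute differences of each list, genes past 2-fold, and 9 genes of transport, degradation and iron storage fixed by name; of marker lists, only some of these are named, and genes outside the rule were chosen after their values were seen. Alternatives were 3 other level filters, 3 other scalings (median centring, quantile, loess with span 0.3), 2 other rules for probe sets, and a 1.5-fold size rule. Promoter windows came from RefSeq (GRCm38.p6).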

Additional observations from a re-analysis of the deposited data

How the results depend on the processing

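With 1 array per label no value has a replicate error, and no paired analysis was possible because each label has 1 array. Of 296 values recomputed under 9 alternatives, 256 kept within 1.5 times (counts) or within the median SD between probe sets of 0.22 (differences and medians), and 40 did not. Some of the 256 could not move, so their share is no measure of robustness. Examples are the number that passed under the 1.5-fold rule and Alas2 and Hmox1, with 1 probe set, under the mean of probe sets. The number of heme enzyme genes at least 2-fold lower went from 0 to 1 with median centring (Alad at -1.01) and with quantile normalisation (Alad at -1.003), and to 1 under a 1.5-fold rule; none was higher under any alternative. Alad was at -0.41 as the mean of its probe sets and at 0.19 when probe sets with the maker's marks for shared or alternative transcripts were left out, where Alas2 had no value and Fech was at -0.32. Ppox was at 0.08 as the mean of its probe sets. The median of the heme enzymes was 0.018 without a level filter, 0.018 with a filter at the 75th percentile and 0.043 with the mean of probe sets. The causes of these changes were not tested.

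Over all genes, counts higher and lower were 110 and 87 with the filter at the 75th percentile, 184 and 145 with a filter on both values, 183 and 171 with the mean of probe sets, and 948 and 989 at 1.5-fold. Heme and iron transport genes lower by 2-fold numbered 0 at the 75th percentile and 1 with both values filtered, and 4 at 1.5-fold. Without a level filter, 2 iron handling genes were higher and 1 lower, and 1 heme-binding gene was lower. The single higher gene of iron handling, of iron-sulphur assembly and of glycine supply each came to 0 with the mean of probe sets. That of iron-sulphur assembly and of glycine supply was 0 at the 75th percentile, and that of iron handling and of glycine supply was 0 without marked probe sets. At 1.5-fold, heme degradation had 1 higher and 1 lower, iron handling 4 lower, iron-sulphur assembly 2 higher and 2 lower, heme-binding proteins 2 higher and glycine supply 2 higher.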
